A study of Mus musculus with 8 samples.

Results

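The genes examined here encode 10 proteins of the BCL2 family, which set whether a cell survives or starts apoptosis at its mitochondria: the anti-apoptotic Bcl2, Bcl2l1 and Mcl1, the effectors Bax and Bak1, and the BH3-only genes Bid, Bcl2l11, Bmf, Bbc3 and Pmaip1. The members were named by gene, and each was read from the probe set whose only gene symbol in the platform annotation is that gene. A probe set was found for 9 of the 10, 1 probe set each, among 19938 genes named in this way. Bax is not analysed here, so Bak1 alone stands for the effectors.

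The RNA came from bone marrow of C57Bl/6 mice. Cells positive for the receptor c-Kit were infected either with a lentivirus expressing KLF7, a transcription factor with zinc fingers, or with a control virus, and KLS cells (Lin- c-Kit+ Sca-1+) were sorted 72 hours later. The sort enriches haematopoietic stem and early progenitor cells. Each group has 4 arrays, and the comparison asks which genes differ in cells that overexpress KLF7. The labels name no marker of infected cells in the sort, do not describe the control virus beyond its name, and do not say whether the arrays of a group are separate animals or cultures. A p-value therefore reflects only how far these arrays scatter, part of which may be technical, and fewer cells of a type cannot be told apart from less RNA per cell.

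In healthy cells the anti-apoptotic proteins hold the effectors and the BH3-only proteins in check. Stress signals raise or activate BH3-only proteins, which occupy the groove of the anti-apoptotic proteins or engage the effectors directly. BAX and BAK1 then permeabilise the outer mitochondrial membrane and cytochrome c leaves the organelle to start the caspase cascade. Loss of MCL1 is known to deplete haematopoietic stem and progenitor cells, and BCL2 overexpression in the mouse is known to enlarge the stem cell pool.

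Arrays correlated with each other across genes at 0.936 to 0.982. The mean correlation with the other arrays was lowest for KLF7 1, at 0.956, against 0.959 to 0.973 for the rest. The probe set of Klf7 lay between 10.19 and 11.43 log2 units on the arrays labelled KLF7 and between 7.98 and 10.28 on those labelled control, a difference of 1.76 (SE 0.46), with the array labelled control 2 above the array labelled KLF7 2. Groups are therefore named by label throughout. The 2 arrays numbered 4 stood apart in markers of mast cells and basophils, whose mean level was 6.19 and 6.00 there against 8.36 to 9.94 on the other arrays. Among genes that mark the sort, the progenitor genes Kit and Cd34 lay at 7.85 to 10.52 and 9.27 to 10.95 over the 8 arrays, the T cell gene Cd3e at 5.37 to 5.91, the B cell gene Ms4a1 at 3.07 to 3.62 and Itgam, which encodes the myeloid integrin CD11b, at 9.23 to 10.46. Levels of different probe sets are not on one scale and the values hold no detection call, so these do not show which of the genes were expressed. Ly6a, which encodes Sca-1, is not analysed here.

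KLF factors are known to bind GC boxes and CACCC boxes, so the stretches just upstream of 3 members with 1 annotated start each are shown, the anti-apoptotic Mcl1 and Bcl2 and the effector Bak1. They hold the 150 bases before the start, 5′ to 3′ on the gene's strand, from RefSeq's annotation of build GRCm38.p6. Capitals mark the GC box GGGCGG, or its reverse complement, found by a search of both strands. Mcl1 lies at chr3:95658571-95658720 on the plus strand, Bak1 at chr17:27028628-27028777 on the minus strand and Bcl2 at chr1:106714291-106714440 on the minus strand.
Mcl1: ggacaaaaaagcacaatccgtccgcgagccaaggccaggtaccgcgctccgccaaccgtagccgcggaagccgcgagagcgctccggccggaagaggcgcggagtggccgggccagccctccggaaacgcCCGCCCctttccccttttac
Bak1: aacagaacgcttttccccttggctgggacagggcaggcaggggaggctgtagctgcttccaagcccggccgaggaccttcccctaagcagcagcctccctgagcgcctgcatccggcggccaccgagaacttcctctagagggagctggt
Bcl2: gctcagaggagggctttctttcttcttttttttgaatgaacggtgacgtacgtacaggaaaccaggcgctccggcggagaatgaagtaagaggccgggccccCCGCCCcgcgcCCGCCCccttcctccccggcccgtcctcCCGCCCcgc
The stretch of Mcl1 held 1 such box, that of Bcl2 held 3 and that of Bak1 held 0. Windows that reach from 250 bases before to 50 after each annotated start were then searched for 8 of the measured members. The box was present for 6 of the 8, against 38.2% of all 27025 genes. It was present in 9 of their 15 windows, against 35.7% of all 32851 windows. The motif CACCC, again on either strand, was present for 5 of the 8, against 59.8% of all genes, and in 10 of the 15 windows, against 57.5% of all windows. A gene with several starts has several windows, which can overlap, and Bbc3 alone gave 3 of the 9 windows with a GC box. The 8 members had more windows per gene than all genes did, which gives a member more places for a match. The 27025 genes also include genes not measured here. Pmaip1 was left out of this search, while the shares of all genes and windows were taken without such an exclusion. These are matches of letters, and binding was not measured.

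Of the 9 measured members, 7 were higher in mean on the KLF7 arrays and 2, Bcl2 and Bid, lower, where 50.4% of all genes had a higher mean. The median difference of the 9 was 0.33 log2, against 0.0019 for all genes, and it was 0.18 without the array labelled KLF7 1. None passed the test: in limma with Benjamini-Hochberg adjustment over all genes, 0 of the 9 had an adjusted p under 0.05, with values from 0.645 to 0.994, and 0% of the 19938 genes did. At an unadjusted p under 0.05 the count was also 0 of 9, where 8.21% of all genes were called. In the alternatives it was 0 to 2 of 9, where 5.9% to 13.5% of all genes were called. The arrays of the 2 groups did not overlap for 1 member, Bcl2l1, which was higher on the KLF7 arrays, as were 2.83% of all genes. In this fit, a difference as large as 1 log2, a 2-fold change, lay outside the 95% confidence interval for 7 members. For Bcl2l11 and Pmaip1 it lay inside. The intervals of Bak1 and Mcl1 came close to it, with upper ends of 0.99 and 0.95. Other settings gave these 2 genes larger SEs. Bak1 was at 0.41 (SE 0.32) with array medians centred, and Mcl1 at 0.54 (SE 0.26) without both arrays numbered 4.

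**Figure D1:**
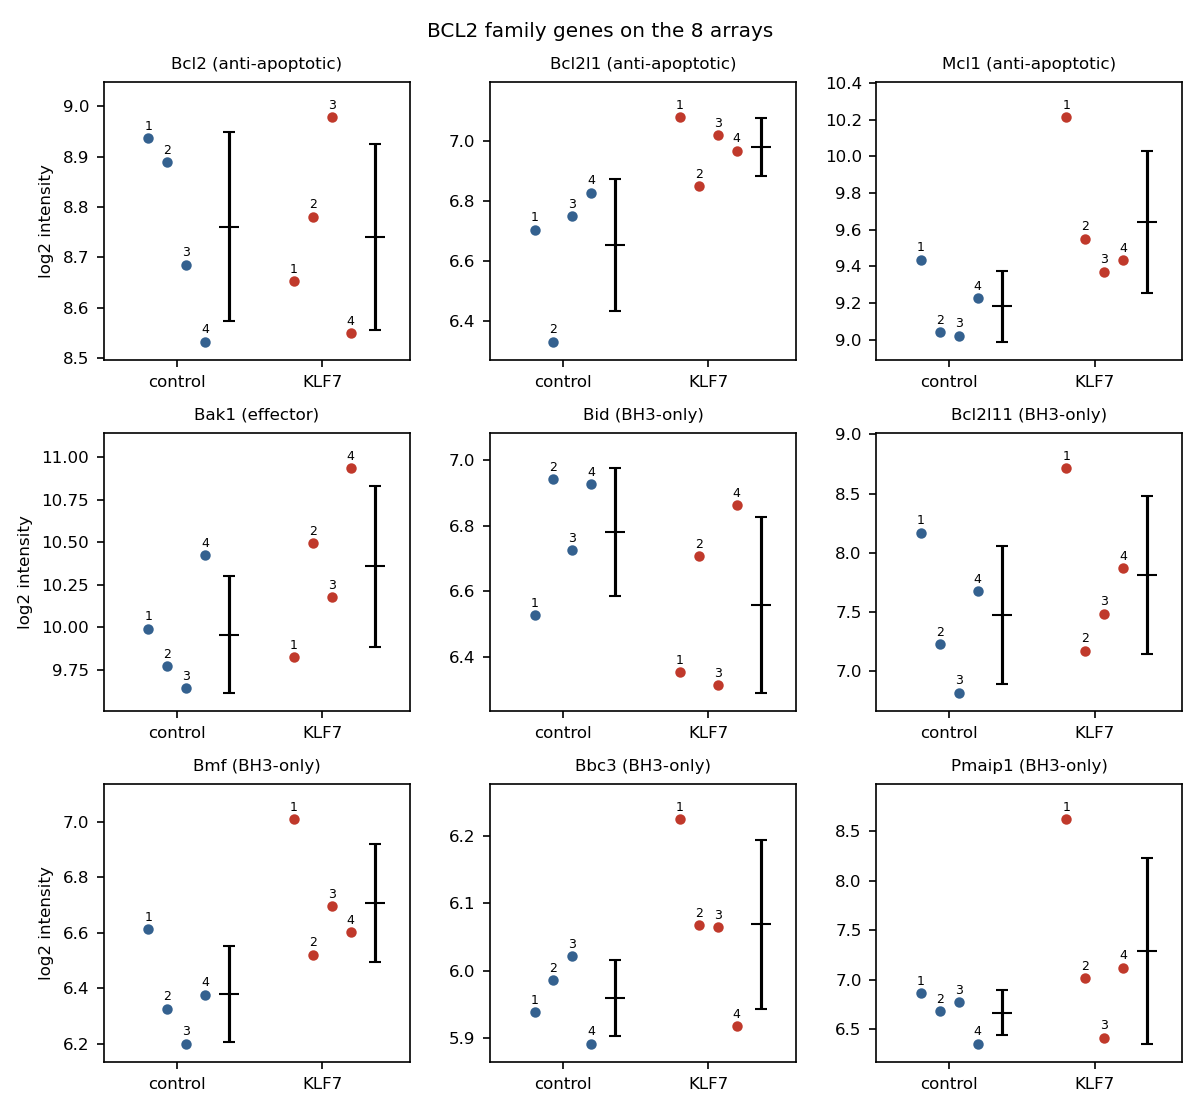
Log2 probe set intensity (vertical axis, a scale of its own in each panel) of the 9 measured BCL2 family genes on the 4 control arrays (blue) and the 4 KLF7 arrays (red), numbered as in the labels, with the mean and SD of each group in black. The array labelled KLF7 1 was the highest of the 8 for 6 genes, and the groups did not overlap for Bcl2l1.

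Among the anti-apoptotic genes, Mcl1 and Bcl2l1 were higher in mean with KLF7 and Bcl2 lay at about the same level in both groups. Mcl1 encodes a short-lived protein that progenitors need to survive. It lay at 10.21, 9.55, 9.37 and 9.43 log2 units on KLF7 arrays 1 to 4 and at 9.44, 9.04, 9.02 and 9.23 on control arrays 1 to 4. The groups overlapped only through control 1, which lay just above KLF7 3 and KLF7 4, and KLF7 1 stood well above all others. The means of 9.64 ± 0.39 and 9.18 ± 0.19 (SD, n = 4 each) gave a difference of 0.46 (SE 0.22, 95% interval -0.03 to 0.95, 1.38-fold, adjusted p 0.645 in limma). Without KLF7 1 it was 0.27.

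Bcl2l1, which encodes BCL-XL and, by alternative splicing, the shorter pro-apoptotic BCL-XS, lay at 7.08, 6.85, 7.02 and 6.97 on the KLF7 arrays and at 6.70, 6.33, 6.75 and 6.83 on the control arrays. Every KLF7 array was above every control array, but KLF7 2 and control 4 were nearly level. Control 2 was the lowest of the 8. The difference was 0.33 (SE 0.16, interval -0.03 to 0.68, adjusted p 0.649 in limma), and without control 2 it was 0.22. The probe set does not part the spliced forms.

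Bcl2, the founding member of the family, lay at 8.65, 8.78, 8.98 and 8.55 on the KLF7 arrays and at 8.94, 8.89, 8.68 and 8.53 on the control arrays. The ranges of the groups nearly coincided, and both arrays numbered 4 were the lowest of their group. The difference of -0.02 (SE 0.18) had an interval of -0.42 to 0.38, and its sign changed when any of 4 arrays was left out. The median difference of the 3 genes was 0.33.

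Bak1, the effector that sits in the outer mitochondrial membrane, lay at 9.82, 10.50, 10.18 and 10.93 on the KLF7 arrays and at 9.99, 9.77, 9.64 and 10.42 on the control arrays. The arrays numbered 4 were the highest of both groups, and KLF7 1, highest for most other members, was here the lowest KLF7 array. The difference was 0.40 (SE 0.27, interval -0.19 to 0.99), with 0.21 without KLF7 4 and 0.58 without KLF7 1.

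The BH3-only genes were the most uneven class. Pmaip1, which encodes NOXA, a protein that binds MCL1 and speeds its degradation, had the largest difference of the 9 members, with 1 array that stood apart. It lay at 8.62, 7.02, 6.42 and 7.12 on the KLF7 arrays and at 6.87, 6.69, 6.77 and 6.35 on the control arrays. KLF7 1 stood far above the other 7 arrays, while KLF7 3 was below 3 of the control arrays. The means of 7.29 ± 0.94 and 6.67 ± 0.22 (SD, n = 4 each) differed by 0.62 (SE 0.39, interval -0.23 to 1.48, 1.54-fold, adjusted p 0.767 in limma), and by 0.18 without KLF7 1.

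Bmf, which encodes a BH3-only protein held at the cytoskeleton until cells detach or are stressed, lay at 7.01, 6.52, 6.70 and 6.60 on the KLF7 arrays and at 6.61, 6.33, 6.20 and 6.38 on the control arrays. Only control 1 overlapped the KLF7 range. The difference was 0.33 (SE 0.16, interval -0.03 to 0.69, adjusted p 0.661 in limma), and 0.23 without KLF7 1.

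Bcl2l11 encodes BIM, which binds all the anti-apoptotic proteins and is kept low by growth factor signals. It lay at 8.71, 7.17, 7.49 and 7.87 on the KLF7 arrays and at 8.17, 7.23, 6.82 and 7.68 on the control arrays. Number 1 was the highest and number 4 the next in both groups, and the groups overlapped broadly. Its difference of 0.34 (SE 0.36, interval -0.47 to 1.14) was 0.04 without KLF7 1 and 0.12 without control 3, and 0.55 without KLF7 2 and 0.57 without control 1. It was 0.20 when arrays were weighted.

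Bbc3, which encodes PUMA and is a target of p53, lay at 6.22, 6.07, 6.06 and 5.92 on the KLF7 arrays and at 5.94, 5.99, 6.02 and 5.89 on the control arrays. The interval of its difference (0.11, SE 0.13, interval -0.17 to 0.39) was the narrowest of the 9, and the difference was 0.06 without KLF7 1. Bid, whose protein is cut by caspase 8 and so links death receptors to mitochondria, was the BH3-only gene with a lower mean on the KLF7 arrays. It lay at 6.35, 6.71, 6.31 and 6.86 there and at 6.53, 6.94, 6.73 and 6.93 on the control arrays. The groups overlapped broadly, and the difference was -0.22 (SE 0.18, interval -0.62 to 0.17), and -0.14 without KLF7 3. The median difference of the 5 BH3-only genes was 0.33, and it was 0.06 without KLF7 1, 0.13 without control 3 and 0.20 with array weights.

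**Figure D2:**
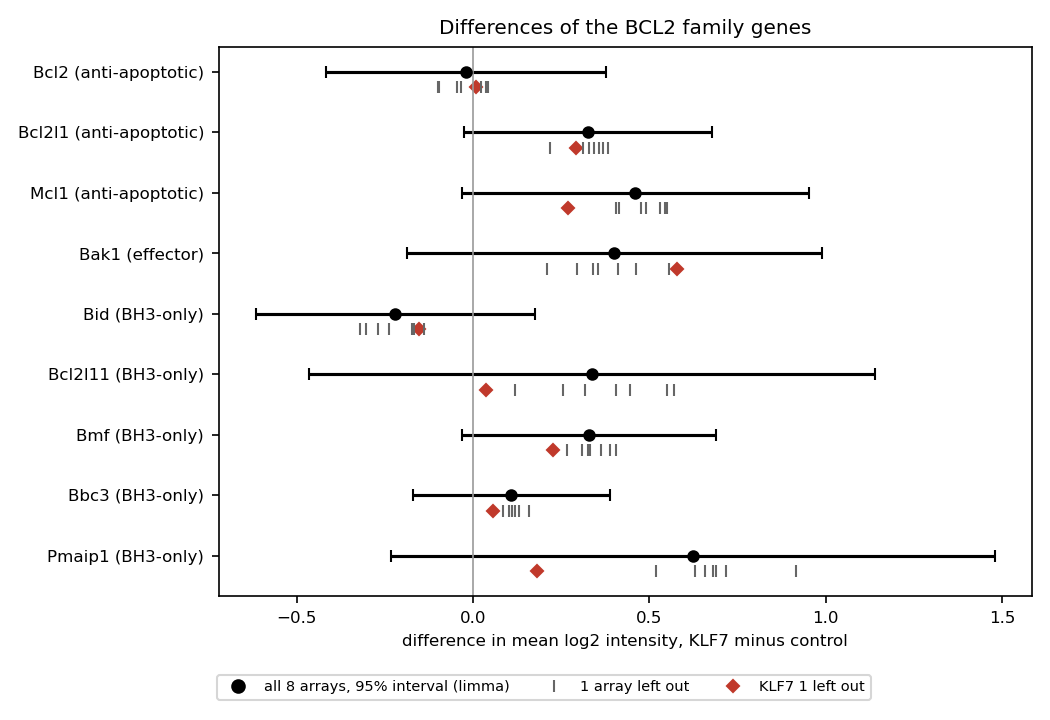
Difference in mean log2 intensity, KLF7 minus control (horizontal axis), of the 9 measured BCL2 family genes. Black points with bars are the limma estimates over all 8 arrays with 95% intervals, all of which hold 0; grey ticks are the same difference with 1 array left out, and the red diamond is the one without KLF7 1, which moves Pmaip1 from 0.62 to 0.18.

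The classes were then followed array by array, as the mean deviation of their genes from each gene's mean over the 8 arrays. The anti-apoptotic genes ran from -0.01 to 0.32 on the KLF7 arrays and from -0.24 to 0.03 on the control arrays, so KLF7 4 lay below control 1. The BH3-only genes ran from -0.17 to 0.61 and from -0.26 to 0.05, and 3 of the KLF7 arrays lay within or near the control range while KLF7 1 lay far above it. Anti-apoptotic and BH3-only genes were thus both highest on KLF7 1, where Bak1 was 0.33 below its own mean. The array labelled KLF7 1 was the highest of the 8 for Bcl2l1, Mcl1, Bcl2l11, Bmf, Bbc3 and Pmaip1.

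**Figure D3:**
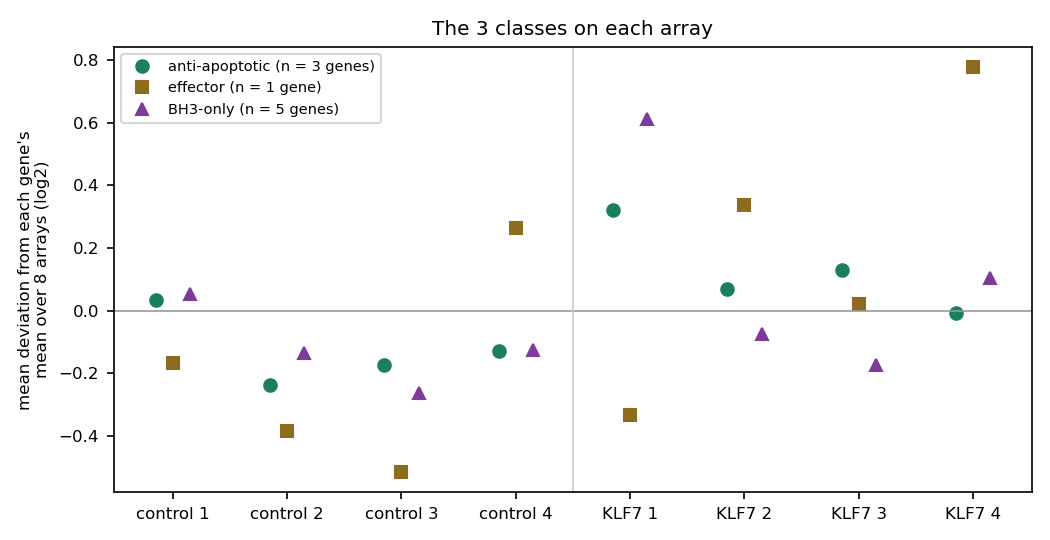
Mean deviation (log2, vertical axis) of the anti-apoptotic genes (circles), the effector Bak1 (squares) and the BH3-only genes (triangles) from each gene's mean over 8 arrays, for each array. The BH3-only genes reach 0.61 on KLF7 1 and lie between -0.26 and 0.11 on the other 7 arrays.

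Monocyte, macrophage and dendritic cell markers were also highest on KLF7 1, while neutrophil and mast cell markers were not. Of the 13 measured markers of the first kind, 12 were higher in mean on the KLF7 arrays and 8 of these had an unadjusted p under 0.05, against 4.65% of all genes called higher at that p, and 0 had an adjusted p under 0.05 in limma. Their mean level was 9.90 on KLF7 1, 8.82 to 9.45 on the other KLF7 arrays and 7.95 to 9.09 on the control arrays. Their summed intensity was 20959 on KLF7 1, 9769 to 15971 on the other KLF7 arrays and 4838 to 12289 on the control arrays, and no deposited intensity was 0. The mean level of 11 neutrophil markers was 7.67 on KLF7 1, 7.13 to 9.49 on the other KLF7 arrays and 7.07 to 9.46 on the control arrays, with a median difference of 0.03. That of 7 mast cell and basophil markers was 8.73 on KLF7 1 and 6.19 to 9.94 on the other KLF7 arrays. On the control arrays it was 6.00 to 9.33. Unlike the neutrophil markers, these 7 were not level between the groups in median, which differed by 0.52. With KLF7, 6 of them were higher and 1 was lower, and 0 had an unadjusted p under 0.05 in limma. The part of any of these cells in the values of the BCL2 family genes was not tested.

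Genes around the BCL2 family in the pathway gave a similar picture of few differences. Of 86 measured genes on 8 lists, 49 were higher and 37 lower in mean with KLF7. None had an adjusted p under 0.05 in limma (smallest 0.323), and 5 higher and 4 lower genes had an unadjusted p under 0.05, which is 10.5% of the 86. Among all genes 4.65% were called higher and 3.56% lower at that p.

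Of 14 other BCL2 family genes, 8 were higher in mean with KLF7 and the median difference was 0.01. Bcl2a1c belongs to the A1 genes, anti-apoptotic relatives known as targets of NF-kB in myeloid cells, and was the 1 gene of this list with an unadjusted p under 0.05. It lay at 7.21 on KLF7 3 and close to 8.02 on the other KLF7 arrays, against 6.72, 6.38, 6.22 and 7.56 on the control arrays. Only control 4 reached the KLF7 range, and the difference was 1.09 (SE 0.30, interval 0.42 to 1.77, adjusted p 0.368 in limma). The mouse A1 genes are near-identical copies, so this value is uncertain as to which copy it reads, and 3 further probe sets that carry 4 A1 symbols each are not analysed here. Bik, a BH3-only gene, was at 0.27 (SE 0.17), at 0.16 without KLF7 3 and 0.42 without KLF7 4, and Bnip2 at 0.26 (SE 0.17).

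Among the apoptosome and caspase genes, 6 of 10 were higher in mean with KLF7. Casp2, which encodes caspase 2, was lower on every KLF7 array (7.19 to 7.59) than on any control array (7.65 to 8.34), with a difference of -0.53 (SE 0.20, adjusted p 0.485 in limma), and of -0.33 when both arrays numbered 2 were left out. The p53 list, with 7 of 14 genes higher, held Pidd1, whose protein forms the platform on which caspase 2 is activated. It lay at 6.70 to 6.80 on the KLF7 arrays and at 6.90 to 7.56 on the control arrays, again without overlap (-0.46, SE 0.17, adjusted p 0.506). Aen, a nuclease gene induced by p53, was at -0.34 (SE 0.13, adjusted p 0.519) with no overlap. The share of all genes that lay lower without overlap is not given here. Neither these 3 genes nor any other of the lists passed over all genes, and Trp53 itself is not analysed here.

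Of the 7 inhibitors of apoptosis (IAPs) and their antagonists, 5 were higher in mean with KLF7 and the median difference was 0.23. Birc5, survivin, which also acts in cell division, was at 0.63 (SE 0.25, adjusted p 0.520 in limma). Birc3 was at 0.31 (SE 0.18), with no overlap of the groups, and at 0.16 without KLF7 1. Xiap, which blocks caspases directly, was at 0.23 (SE 0.15). Of 12 death receptor genes 9 were higher in mean, led by Traf1, which NF-kB induces and whose protein binds TNF receptors. Its KLF7 arrays (6.92 to 8.45) lay above its control arrays (5.24 to 6.41), and the difference of 1.53 (SE 0.35) was 1.23 without KLF7 1. Among all genes, 2.83% lay higher without overlap, as Birc3 and Traf1 did.

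Among 8 genes that control the turnover of the MCL1 protein, 6 were lower in mean with KLF7 and the median difference was -0.11. Fbxw7, a ubiquitin ligase subunit that marks MCL1 and MYC for degradation, was the exception by size. It lay at 7.79, 7.87, 7.35 and 7.07 on the KLF7 arrays and at 7.08, 6.40, 6.67 and 6.19 on the control arrays. The groups met only where control 1 stood just above KLF7 4, and the difference was 0.93 (SE 0.24, adjusted p 0.335 in limma), or 0.65 as the mean of its probe sets. Huwe1, another ligase of MCL1, was at -0.31 (SE 0.18).

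Transcription factors known to act on BCL2 family genes were split, with 6 of 13 higher. Myc, which sensitises cells to apoptosis, lay at 10.41 to 10.87 on the KLF7 arrays and at 11.13 to 11.52 on the control arrays, without overlap (-0.63, SE 0.17, adjusted p 0.368 in limma). Foxo1, a factor that can induce Bcl2l11, was at 0.44 (SE 0.16) and its relative Foxo3 at -0.29 (SE 0.17), the latter also without overlap. Of the 13 factors, 2 thus lay lower without overlap, and the share of all genes that did so is not given here. Another 1 lay higher without overlap, as did 2.83% of all genes. The 10 mitochondrial partners, which include the fission and fusion genes, held no gene at an unadjusted p under 0.05, and their median was 0.07.

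**Figure D4:**
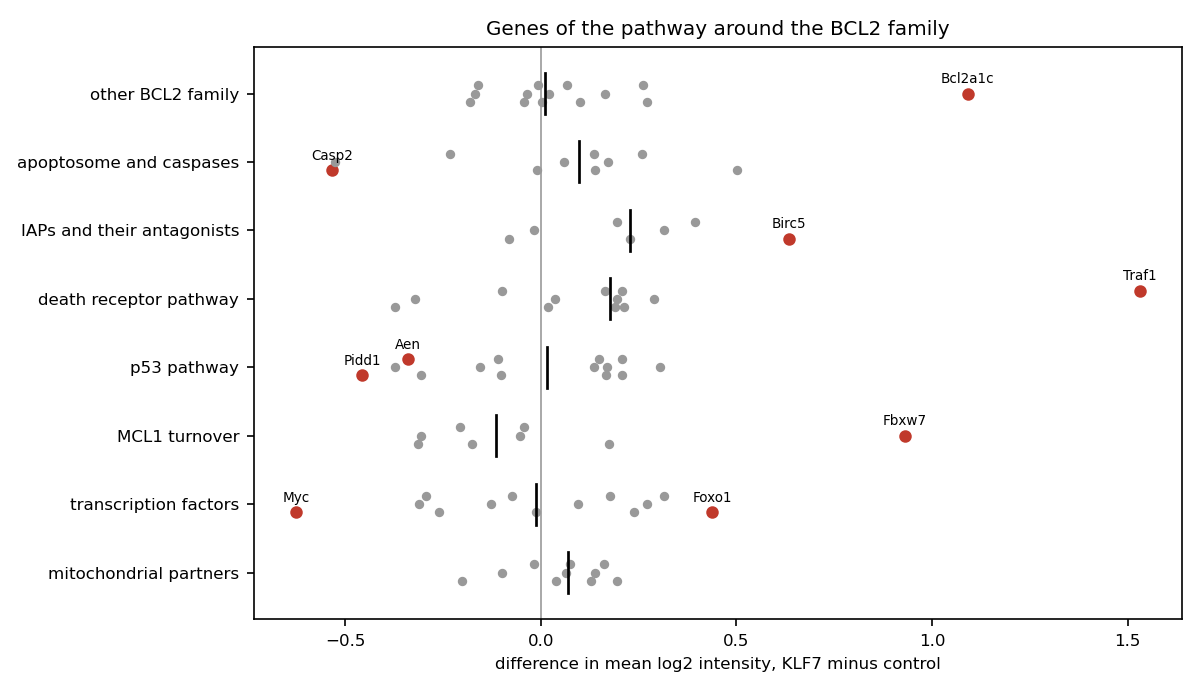
Difference in mean log2 intensity, KLF7 minus control (horizontal axis), of each measured gene on 8 lists around the BCL2 family, with the median of each list as a black bar. Red named points had an unadjusted p under 0.05 in limma, 9 genes in all, and none had an adjusted p under 0.05.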

How the data were processed

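Total RNA of 8 sorted cell samples, 4 labelled KLF7 and 4 labelled control, was amplified and measured on single-colour arrays, per the labels. The authors deposited probe set intensities on a linear scale. The submitters' processing notes name RMA, which corrects background, normalises between arrays and summarises probes, and Affymetrix Expression Console; versions and the genome build are not stated there. The values hold no detection call.

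Of 35554 probe sets, 21789 had 1 symbol, 1621 several and 12144 none. Of the 21789, 21698 matched RefSeq (GRCm38.p6) by Entrez number. The highest-mean probe set was kept per gene. Log2 values were fitted in limma 3.58.1 (R 4.3.3) with an intensity trend and group as the only term. P-values are two-sided and were adjusted by Benjamini-Hochberg over 19938 genes, with a threshold of 0.05. The scripts were tested on simulated data.

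The members and lists were chosen with earlier results of these data known. All members are named, and of each other list at most 3 genes by smallest p; Klf7 and markers of the sort are given as checks. Alternatives left out arrays, used the array number as a block, changed the normalization, weights, prior or pseudocount (16), left out the dimmer 50% of genes, or averaged probe sets. Figures were drawn with matplotlib 3.10.9.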

Additional observations from a re-analysis of the deposited data

How the results depend on the processing

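Over 21 alternatives no member had an adjusted p under 0.05 in limma, and every measured member but Bcl2 kept its direction. A member's difference could not change under the block, the batch term for arrays numbered 4, no intensity trend or the robust prior. Leaving out dimmer genes could not change it either, nor could averaging probe sets, since each member has 1. Direction could differ only in the other settings. With 1 array left out at a time, Bcl2 ranged from -0.10 (without KLF7 3) to 0.043 (without KLF7 4), the median of the BH3-only genes from 0.057 (without KLF7 1) to 0.41 (without control 1) and that of the anti-apoptotic genes from 0.22 to 0.38. At an unadjusted p under 0.05, array weights, no intensity trend and repeated quantile normalization gave 2 members each. So did the replicate number as a block and leaving out KLF7 3, while 4 other settings gave 1 and the rest 0. In the settings named, 10.7%, 8.67%, 8.7%, 13.5% and 8.02% of all genes were called at that p. Over all alternatives the share was 5.9% to 13.5%. Leaving out both arrays numbered 2 put Bcl2 at 0.0090. Leaving out 1 array gave 0 to 1 genes past the threshold over all genes, 1 without KLF7 3 or control 4. With the replicate number as a block there were 90 genes, no member among them (smallest adjusted p of a member 0.266, in limma), while Mcl1 and Bmf had an unadjusted p under 0.05, as 13.5% of all genes did, and the arrays of every number but 2 correlated best with their own number. Across genes, deviations from the group means correlated between same-numbered arrays at 0.35, -0.13, 0.36 and 0.70 for numbers 1 to 4. The labels do not say whether the numbers pair the arrays, so the main fit used no block. The arrays numbered 4 as a batch term gave 26 genes, again no member. Without both arrays numbered 4, Mcl1 was at 0.54, Bcl2l1 at 0.39, Bak1 at 0.36 and Pmaip1 at 0.58. The settings for arrays numbered 4 and 2 were chosen with earlier results known. With 4 arrays a group, the median SE of a gene was 0.18, which limits what differences can be seen.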

Other observations

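For 5 of the 9 members the highest array of both groups carried the same number, as for 38% of all genes. Whether these shares differ was not tested. Mcl1, Bcl2l11, Bmf and Pmaip1 were highest on number 1 in both groups, and Bak1 on number 4. On the arrays numbered 4, where Bak1 was highest and Bcl2 lowest of both groups, megakaryocyte markers had their highest mean level (9.31 and 9.80 against 7.92 to 8.94 elsewhere) and mast cell and basophil markers their lowest. The part of these cells in the values was not tested.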
